A study of Mus musculus with 31 samples.

Results

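The cells described here were the kept cells of the spinal cord single-cell RNA data that held at least 4 UMIs (unique molecular identifiers, each counting 1 captured transcript) summed over Ifit1, Ifit3, Ifit3b and Usp18. There were 94 such cells among the 3285 cells of the authors' cell table, a share of 2.86% with an exact Clopper-Pearson 95% interval of 2.32% to 3.49%. They are called member cells below, and the other 3191 cells are called remaining cells. The 4 genes chose the member cells, so the levels of those 4 genes are given as a description and support nothing.

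The study sequenced ependymal cells, the ciliated lining of the central canal, from mice of the C57BL/6 background. It used 2 genotypes. Foxj1_tdT mice carry a red fluorescent reporter for cells that express Foxj1, the master transcription factor of motile cilia, and Foxj1_Olig2_tdT mice also carry Olig2, which specifies oligodendrocyte fate. In these lines the reporter is switched on through Foxj1, so cells without Foxj1 activity at labelling are not covered by design. The 6 single-cell RNA samples were 1 uninjured, 1 at 2 wpi and 1 at 4 wpi in each genotype, read here as weeks after injury. The 12 bulk RNA libraries were 2 for each genotype in the uninjured state, at 1 dpi and at 5 dpi, read as days after injury. A single-cell ATAC sample of 1084 non-neuronal cells came from uninjured cord. All cells were obtained by tissue digestion and flow cytometry, and the labels give neither age nor the number of animals.

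The cells of the single-cell RNA matrix carry 6 library codes (017, 018, 019, 020, 072 and 073) that no label ties to the 6 samples. The codes were therefore not used as replicates or as conditions. No test was made in the single-cell RNA data, and nothing below compares genotypes or times there. Kept cells had a median of 5722 UMIs (range 716 to 52590). Of the cell barcodes, 7 occurred under more than 1 code, and no member cell carried any of these. Intervals given for single-cell values cover counting error only.

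Type I interferons signal through a receptor pair, Ifnar1 and Ifnar2, and the kinases Jak1 and Tyk2. The kinases activate transcription factors, among them Stat2, which work with Irf9 and bind short DNA motifs near interferon-stimulated genes. Ifit1, Ifit3 and Ifit3b encode RNA-binding antiviral proteins with tetratricopeptide repeats, and Usp18 removes the ubiquitin-like protein Isg15 from its targets and dampens signalling at the receptor.

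The sequences before the starts of the 3 Ifit genes are shown because each holds the repeat that the interferon-activated complex is known to bind. In the GRCm38.p6 gene table Ifit3 spans chromosome 19 from 34583119 to 34588982, Ifit3b from 34607530 to 34613403 and Ifit1 from 34640889 to 34650009, all protein coding. Usp18 lies on chromosome 6 from 121245906 to 121270917. The motif searched was GAAA repeated after a gap of any 2 bases (GAAANNGAAA), with its reverse complement TTTCNNTTTC, and overlapping matches were counted. Each sequence is the 200 bases before the start used in the promoter table (34640889 for Ifit1, 34583529 for Ifit3 and 34607957 for Ifit3b, the last 2 inside the gene spans above) on the plus strand of GRCm38.p6, 5′ to 3′, with matches in capitals.

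Ifit1, chr19:34640689-34640888: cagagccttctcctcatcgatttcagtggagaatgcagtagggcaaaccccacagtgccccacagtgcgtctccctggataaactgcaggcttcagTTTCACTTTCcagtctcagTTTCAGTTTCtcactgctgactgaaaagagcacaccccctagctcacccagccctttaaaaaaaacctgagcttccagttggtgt
Ifit3, chr19:34583329-34583528: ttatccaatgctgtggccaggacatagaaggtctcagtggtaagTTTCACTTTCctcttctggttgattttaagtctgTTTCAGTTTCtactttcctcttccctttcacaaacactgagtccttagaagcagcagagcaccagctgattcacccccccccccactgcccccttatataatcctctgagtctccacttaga
Ifit3b, chr19:34607757-34607956: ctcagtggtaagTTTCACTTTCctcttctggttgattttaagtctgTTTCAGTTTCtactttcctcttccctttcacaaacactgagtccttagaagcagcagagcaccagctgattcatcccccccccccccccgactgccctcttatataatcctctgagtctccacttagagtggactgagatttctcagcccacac

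Each window held 2 matches. They began 104 and 85 bases before the start in Ifit1, 156 and 122 in Ifit3 and 188 and 154 in Ifit3b. The Ifit3 and Ifit3b windows shared an unbroken run of 169 bases. These 2 genes are near-identical copies, so how reads were divided between them is uncertain.

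Among all 27025 genes with a promoter entry (250 bases before to 50 after the start), 3.99% held a match. Of the 25 highest genes among those counted as higher in member cells, described below, 21 had an entry and 14 of these held a match. Of all 62 genes at least 2-fold higher, 49 had an entry and 21 (42.9%) held a match. Of the 171 lower genes, 123 had an entry and 4 (3.25%) held a match. None of the 25 cilia genes with an entry did. A match is a run of letters and was not tested as a site. The following matches with 5 bases on each side come from genes that were high in member cells, each written on the gene's own strand.

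Isg15, chr4:156200876-156200895, minus strand: aaaagGAAACCGAAAcagaa
Rsad2, chr12:26456558-26456577, minus strand: ccaacTTTCATTTTCagaaa
Bst2, chr8:71537582-71537601, minus strand: aaaatGAAACTGAAAggctg
Stat2, chr10:128270271-128270290, plus strand: cctggTTTCAGTTTCctttc
Irgm1, chr11:48871430-48871449, minus strand: aaataGAAACCGAAActgat
Gbp2, chr3:142620599-142620618, plus strand: tttagTTTCACTTTCactgt

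The match printed for Isg15 is the middle of 3 overlapping ones, and it began 72 bases before the start. Those of the others began 120 bases before the start in Rsad2, 124 in Bst2, 222 in Stat2, 24 in Irgm1 and 59 in Gbp2.

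Of the 3285 kept cells, 2811 had no UMI of the 4 genes, 277 had 1, 71 had 2 and 32 had 3. Just inside the threshold, 12 cells had 4. The cells at 3 had a median of 7005 UMIs in all and 36 UMIs of the interferon-stimulated list, and those at 4 had 6317 and 46.5. At 3 UMIs, 24 of the 32 cells showed 2 or more of the 4 genes, and at 4 UMIs all 12 did.

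Ifit3 was detected in 85 of the 94 member cells, with a median of 3 and at most 41 UMIs. Ifit1 was detected in 78 (median 3, highest 24), Ifit3b in 70 (median 2, highest 19) and Usp18 in 58 (median 1, highest 8). All 4 genes were detected in 33 member cells, 3 in 40, 2 in 18 and 1 in 3. Among remaining cells each gene was found in 1.57% to 4.83%. Member cells held 1364 of the 1879 UMIs of these genes in kept cells (72.6%).

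Member cells occurred under 5 of the 6 codes, at unequal shares. Code 073 had 31 of 360 cells (8.61%, 5.93% to 12%), the highest share. Code 072 had 33 of 992 (3.33%, 2.30% to 4.64%), code 018 had 21 of 895 (2.35%, 1.46% to 3.56%) and code 020 had 7 of 337 (2.08%, 0.839% to 4.23%). Code 019 had 2 of 339 (0.590%, 0.0715% to 2.11%). Code 017 had 0 of 362, which allows a share of up to 0.829% (3 counts of the total). Its cells were shallower, with a median of 2714 UMIs against 5078 to 7497 among remaining cells of the other codes.

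An absolute UMI threshold can favour deep cells, so every cell was also thinned to 2000 UMIs, leaving out 133 shallower cells. The rule then took 35 of 3152 cells. Code 073 kept the highest share, 13 of 360 (3.61%, 1.94% to 6.10%), followed by code 072 with 12 of 992 (1.21%, 0.627% to 2.10%). Code 018 had 7 of 860, code 020 had 2 of 330, code 019 had 1 of 312 and code 017 had 0 of 298, which allows up to 1.01%. The intervals of code 073 and code 072 overlapped after thinning. Of the 215 cells that the authors' table left out, 2 met the threshold.

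**Figure D1:**
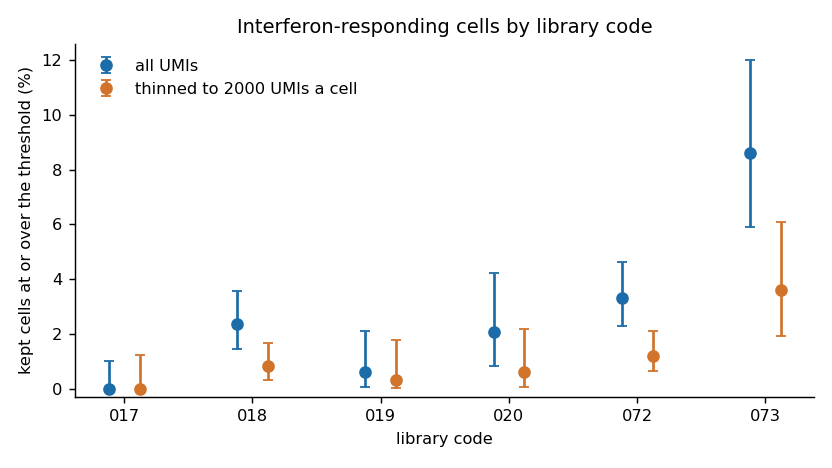
Percent of kept cells at or over 4 summed UMIs of Ifit1, Ifit3, Ifit3b and Usp18 (y axis) by library code (x axis), from all UMIs and after thinning each cell to 2000 UMIs. Bars are exact 95% binomial intervals. Code 073 was highest at 8.61% and 3.61%, and code 017 had no such cell.

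The label "ependymal" was checked against 13 markers. At least 8 of them were detected in 93 of the 94 member cells (98.9%), and in 91.7% of remaining cells. Foxj1 itself was found in 83 member cells and Ccdc153, a ciliary gene of ependymal cells, in 91. Marker shares here and below pool all codes and were not matched by code. Code 073 held 31 of the 94 member cells but 360 of the 3285 kept cells. The median member cell showed 13 of the 13 markers, with a summed level of 15641 CPM (counts per 1000000 UMIs of the cells concerned; range 2050 to 30510) against a median of 15298 in remaining cells.

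Mature oligodendrocyte markers stood apart in a few cells. At least 6 of 10 were detected in 7 member cells (7.45%), 6 under code 073 and 1 under code 020, and in 4.23% of remaining cells. Of those 7 cells, 6 also showed at least 8 ependymal markers, and their depth ran from 8180 to 48855 UMIs. No doublet caller was run. No member cell showed 5 or more of 9 oligodendrocyte progenitor markers, against 3.29% of remaining cells.

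Markers of immune and vascular cells were near absent from member cells. Of 11 microglial markers the defining genes Cx3cr1, Tmem119 and Csf1r had no UMI in any member cell. Ptprc, Ccr2, Itgam and Mrc1 of infiltrating myeloid cells were also at 0, and the median member cell showed 0 of 10 such markers (at most 2). Of 8 lymphocyte markers 5 were at 0, of 9 endothelial markers 6, including Cldn5, and of 7 pericyte markers 5, including Pdgfrb. Of 9 fibroblast markers, Col3a1, Col6a3 and Dpt were at 0 in member cells. The collagen genes Col1a1 (29.8% of member cells, 9.59% of remaining cells) and Col1a2 (42.6% and 21.2%) were detected in a larger share, as was Dcn (7.45% and 2.07%). Both collagen genes were leading genes of cluster 11, described below, in which 199 of 208 cells were of code 073. Their larger share cannot be told apart from the share of code 073 among member cells. Lum (1.06% and 0.971%), Fbln1 (4.26% and 4.20%) and Pdgfra (1.06% and 2.60%) were rare in both. The summed level of the list had a median of 0 CPM in member and remaining cells, up to 1281 and 24595 CPM. Their part in the results was not tested.

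Clusters were made without the 4 genes and without any gene of the interferon lists. Member cells lay in 10 of the 13 clusters and formed no cluster of their own. Cluster 11 held the most, 27 of its 208 cells (13.0%, 8.73% to 18.3%). Its leading genes were Pla2g7, Bglap, Bglap2 and Col1a1, and 199 of its 208 cells were of code 073, so cluster and code cannot be told apart there. In the other clusters with member cells the share was 0.559% to 3.66%. Cluster 8, led by myeloid transcripts such as Ctss, Lyz2 and C1qa, held 4 of 234. No member cell lay among the 160 cells of cluster 6, led by the astroglial filament gene Gfap, the 104 cells of cluster 4, led by mitochondrial transcripts, or the 59 cells of cluster 10, led by progenitor genes such as C1ql1 and Pdgfra. Counts of 0 in those clusters allow shares of up to 1.88%, 2.88% and 5.08%, again as 3 counts of the total.

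Member cells were somewhat deeper than the rest. Their median was 6447.5 UMIs (range 2343 to 48855) against 5700 in remaining cells. Within codes 018 and 072 the medians were 5542 against 5351 and 7329 against 7025, while in code 073 member cells had 6892 against 7497.

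Across genes, member cells were compared with the remaining cells of the same library code. The fold is the UMIs observed in member cells divided by those expected at the rate of the remaining cells, summed over codes. Its interval covers counting error of the member cells only and takes the expected UMIs as exact. It is therefore too narrow where few UMIs were expected. A gene was counted as higher at 2-fold or more, or lower at 0.5 or less, with the same direction under each of the 3 codes that held at least 10 member cells (018, 072 and 073). Of 8340 genes with at least 20 observed plus expected UMIs, 62 (0.743%) were higher and 171 (2.05%) were lower. The rule is one of size and not a test, and low-count genes can pass it through counting error.

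The higher genes were led by the interferon programme. Of the 62, 37 belonged to the 6 lists of interferon and antigen presentation genes, and 22 of the 25 highest did. The other 3 of the 25, Gbp6.1 (a repeated symbol in the deposited table), Trim30d and Trim34a, were in no list, and are members of the guanylate-binding and tripartite-motif families. A low gene that is high in member cells passes the minimum through those cells. Counts were therefore also taken over the 8495 genes with at least 10 expected UMIs, a minimum that does not use the member cells' counts. There 30 (0.353%) were higher and 282 (3.32%) lower, and 46.3% had a fold above 1.

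Among interferon-stimulated genes, 20 of the 67 in the matrix had at least 10 expected UMIs. Of these, 10 were higher, none was lower and 18 had a fold above 1, with a median log2 fold of 1.19 against -0.03 over all such genes. By the minimum on observed plus expected UMIs, 18 of 33 kept genes were higher and none lower.

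Oasl2, an antiviral protein of the oligoadenylate synthetase family, was detected in 66 of the 94 member cells (70.2%) and 7.74% of remaining cells. Its level in member cells was 209.7 CPM under code 018, 279 under 019, 281 under 020, 196 under 072 and 296 under 073. The matching levels in remaining cells were 18.6, 3.97, 8.53, 18.9 and 14.2. Code 019 had only 2 member cells, and its level there rested on 3 UMIs. The fold was 14.4 (exact Poisson 95% interval 12.5 to 16.4).

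Rtp4, a receptor-transporting protein induced by interferon, was found in 76 member cells (80.9%, against 15.1% of remaining cells). Its level ran from 228 to 300.3 CPM over the 5 codes in member cells and from 24.98 to 32.5 in remaining cells, a fold of 8.34 (7.29 to 9.50). Bst2, tetherin, which holds enveloped viruses at the cell surface, was found in 71 cells. It stood at 428, 93.0, 676, 279 and 526 CPM in member cells of codes 018, 019, 020, 072 and 073, where the value of code 019 was 1 UMI. In remaining cells it stood at 38.5, 18.7, 43.2, 47.1 and 75.6, and the fold was 7.34 (6.61 to 8.14).

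Isg15, a ubiquitin-like protein that is attached to other proteins, had the highest fold among genes counted as higher, 32.5 (28.0 to 37.5), and an uneven spread. It was found in 26 member cells (27.7%), and 49 of its 187 UMIs came from a single cell. Its level was 40.3 CPM under code 018, 0 under 019, 300.3 under 020, 102 under 072 and 413 under 073, against 2.8 to 9.4 in remaining cells. Ifi44 (18.2-fold), Rsad2, known as viperin (8.70-fold), Ddx60 (7.40-fold) and Xaf1 (6.26-fold) followed, in 27, 29, 23 and 54 member cells. Gm4951, chosen after its values were seen, stood above Isg15 at 47.3-fold (27 UMIs against 0.571 expected, in 17 cells), but had no UMI in member cells of code 018 and was not counted.

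Ifitm3, a membrane protein that blocks viral entry, made up most UMIs of the list. It was found in 98.9% of member cells and 93.1% of remaining cells. Its fold of 1.69 (1.64 to 1.75) stayed under 2, with levels of 5889, 1488, 1182, 5860 and 2436 CPM in member cells and 3826, 1066, 805, 3784 and 822 in remaining cells of the 5 codes. It was higher in member cells under each code, and codes 018 and 072 were high in both kinds of cell. Ifitm1 (0.719) and Ifitm2 (0.859) were not higher.

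**Figure D2:**
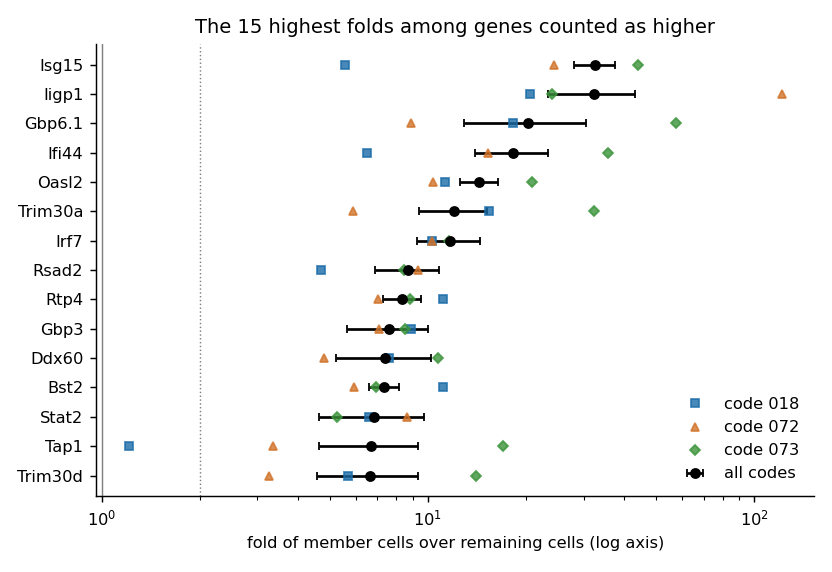
Fold of member cells over remaining cells of the same library code (x axis, log scale) for the 15 highest of the 62 genes counted as higher. Black points are all codes with exact Poisson 95% intervals of the member counts, coloured symbols are the 3 codes with at least 10 member cells, and the dotted line marks 2-fold. Folds run from 32.5 for Isg15 to 6.64 for Trim30d, and code 018 gave the lowest fold for Tap1.

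Several transcription factors of the pathway were higher, while the receptors were not. Stat2 was found in 22 member cells and was 6.83-fold higher (4.64 to 9.70). Irf9, its DNA-binding partner, was found in 58.5% of member cells and 11.2% of remaining cells and was 4.79-fold higher (3.91 to 5.81). Irf7, which drives later rounds of interferon gene expression, was 11.6-fold higher (9.25 to 14.5) in 44 cells. It stood at 72.6, 93.0, 131, 70.3 and 116 CPM in member cells of codes 018, 019, 020, 072 and 073. In remaining cells Irf7 stood at 7.07, 2.84, 4.01, 6.82 and 10.1. The member value of code 019 was 1 UMI. Of the 16 kept genes of the signalling list 4 were higher, none was lower and 9 had a fold above 1. Among the 13 with at least 10 expected UMIs, 2 were higher and the median log2 fold was -0.03.

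The receptor genes Ifnar1 (0.650, 0.325 to 1.16), Ifnar2 (0.843, 0.555 to 1.23) and Ifngr1 (0.788, 0.585 to 1.04) had intervals that included 1. So did the kinases Jak1 (1.26, 0.937 to 1.65) and Jak2 (1.39, 0.835 to 2.17). Socs1, an inhibitor of this signalling, was at 1.87 (1.07 to 3.04), and Socs3 at 0.969 (0.837 to 1.12).

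Interferon transcripts themselves were almost undetected. Of 11 ligand genes, 10 had no UMI in any member cell, and Ifng had 1. At this depth low expression was not detectable. Of the nucleic acid sensing list 2 genes were kept and neither was higher: Trim56 stood at 1.52 (1.10 to 2.04) and Tbk1 at 1.31 (0.676 to 2.28). The RNA sensors Ddx58 (2.78-fold) and Ifih1 (2.61-fold), held here in the interferon-stimulated list, were higher.

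Of 18 genes often used as markers of the response to interferon gamma, 6 were kept. The 6 kept genes were all higher: Iigp1 32.2-fold (23.4 to 43.2), Gbp3 7.59-fold, Irgm1 5.94-fold, Gbp2 4.98-fold, Igtp 4.89-fold and Irgm2 3.56-fold. They encode guanylate-binding and immunity-related GTPases, which act against intracellular microbes. Gbp2 and Igtp were the only ones with at least 10 expected UMIs. Iigp1 (1.37 expected), Gbp3 (6.72), Irgm1 (6.06) and Irgm2 (5.06) passed the minimum through their counts in member cells. That all kept genes were higher is therefore partly set by the minimum. Gbp2 was at 121, 186, 131, 112 and 246 CPM in member cells of the 5 codes and 49.3, 36.3, 27.1, 37.7 and 18.04 in remaining cells. Its member value under code 019 was 2 UMIs. Of the 12 genes of this list that were not kept, 7 had no UMI in member cells. These included Ciita and Cd74 of class II antigen presentation, and H2-Ab1, another class II gene, had 7 UMIs against 6.59 expected. The 12 genes fell under the minimum, so no direction was read from them.

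Class I antigen presentation genes were higher to a smaller degree. Of 15 genes with at least 10 expected UMIs, 6 were higher, none was lower and 12 had a fold above 1, with a median log2 fold of 0.70. By the other minimum 9 of 18 kept genes were higher and none lower. The peptide transporter subunits Tap1 (6.67-fold) and Tap2 (2.26-fold) and the immunoproteasome subunits Psmb9 (4.86-fold) and Psmb8 (4.03-fold) were among them. Tap1 rested mainly on code 073, at 76.5 CPM against 4.5, and stood at 8.1 against 6.7 under code 018. Of the class I heavy chains, H2-T23 was 5.34-fold and H2-K1 2.15-fold (1.92 to 2.39) higher. H2-D1 (1.63, 1.47 to 1.79) and their common light chain B2m (1.67, 1.51 to 1.84) stayed under 2-fold. Without code 073, 4 class I genes were higher.

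**Figure D3:**
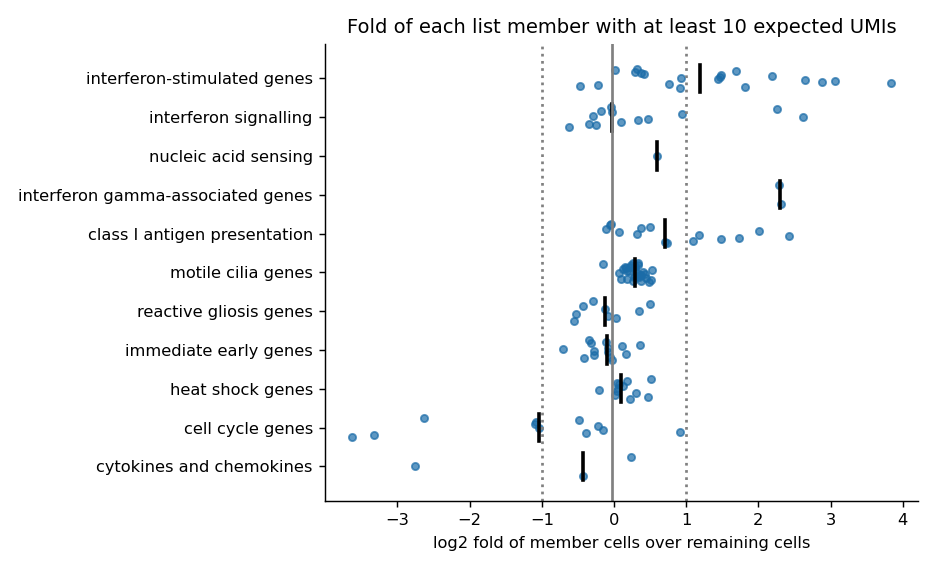
Log2 fold of member cells over remaining cells (x axis) for each gene with at least 10 expected UMIs, by list (y axis). Short black bars are list medians, the grey line is the median of all such genes (-0.03) and dotted lines mark 2-fold. Interferon-stimulated genes have a median of 1.19 and cilia genes one of 0.29.

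Genes of the ependymal programme stayed within 2-fold. None of 30 cilia genes was past 2-fold in either direction, 29 had a fold above 1 and the median log2 fold was 0.29. That median was 0.11 without code 073 and 0.11 against remaining cells of the same cluster. It was also 0.11 without cells holding 6 or more mature oligodendrocyte markers, but 0.55 without code 072. Foxj1 was at 1.40 in fold, with 274 against 260.1 CPM under code 018, 434 against 332 under 072 and 353 against 193 under 073. Reactive gliosis genes (9 kept, median log2 fold -0.12), immediate early genes (14 kept, -0.10) and heat shock genes (12 kept, 0.09) included none past 2-fold. Vim, a filament gene that rises in reactive glia, stood at 1.02 (0.968 to 1.07), and Fos, an early marker of cell activation and handling, at 0.976 (0.923 to 1.03). The pooled fold of Vim joined opposite directions. It was 0.819 under code 018, 0.891 under 072 and 2.04 under 073 (1281 against 627 CPM). Of 3 kept cytokine genes none was counted as higher or lower. Il33, an alarmin, had 14 UMIs against 94.7 expected (0.148-fold), but was low under code 073 (29.9 against 307 CPM) and not under code 072 (4.85 against 3.66).

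Of 9 kept cell cycle genes, Top2a (2 UMIs against 24.7 expected) and Rrm2 (10 against 21.4) were lower, and the list's median log2 fold was -0.48. Without code 072, 3 were lower (median -0.95), and without code 018, 3 were lower and 1 higher (median -0.59). Against remaining cells of the same cluster none was lower (median -0.11), and without code 073 none was either (median -0.09). Tpx2, a spindle gene, went the other way at 1.89 (1.52 to 2.32).

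The lowest genes included leading genes of clusters 7 and 10. Tmem100 had 0 UMIs in member cells against 33.5 expected, and Pdgfra (1 against 30.9), C1ql1 (3 against 57.7) and 3110035E14Rik (2 against 82.8) followed. These 4 were among the 10 leading genes of cluster 10, in which there was no member cell. Hist1h2ap (3 against 76.3) and 2810417H13Rik (1 against 20.1) led cluster 7 beside Top2a and Mki67. With remaining cells restricted to the same cluster, 50 genes were lower, and without code 073, 21 were. With cells holding 6 or more mature oligodendrocyte markers left out, 51 were lower and 54 higher.

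Genes outside the lists were also among the higher ones. Besides Gbp6.1 (20.3-fold), Trim30d (6.64-fold) and Trim34a (5.53-fold), they included genes with other roles. Wnt4, a secreted signalling protein, had 21 UMIs against 7.71 expected (2.73-fold). Ccno, which takes part in making the many basal bodies of multiciliated cells, had 23 against 7.86 (2.93-fold). These 2 were chosen after their values were seen. Like Gbp6.1, Trim30d and Trim34a, both passed the minimum on observed plus expected UMIs only through their counts in member cells. That they were counted as higher is therefore partly set by the minimum.

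Without Ifitm3, the level of interferon-stimulated genes was higher in cells with more UMIs of the 4 rule genes, below the threshold too. Ifitm3 carries most UMIs of the list. Without it the list stood at 654 CPM (642 to 666) in cells with none of the 4 genes. It stood at 954 (915 to 995) in cells with 1 UMI, 1243 with 2 and 1203 with 3. In cells with 4 it was 1998 (1753 to 2267), with 5 to 9 it was 2017, with 10 to 19 it was 3138 and with 20 or more 3911 (3676 to 4157). The steps from 2 to 3 and from 4 to 5 to 9 lay within counting error. With Ifitm3 included the list stood at 3364 at 0 and 8676 (8269.7 to 9096) at 10 to 19, and was lower, at 7754 (7422 to 8098), at 20 or more. Cells of a band come from several codes.

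Class I genes stood at 1682 CPM at 0 and 3267 (3052 to 3492) at 20 or more, while cilia genes stayed between 16920 and 19873. Among the 94 member cells, the level of the 4 genes and that of the interferon-stimulated list had a Spearman correlation of 0.46. The same measure was -0.04 for cilia genes, and that of the summed UMIs with depth was 0.15. These are descriptions over cells that share libraries and depth.

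**Figure D4:**
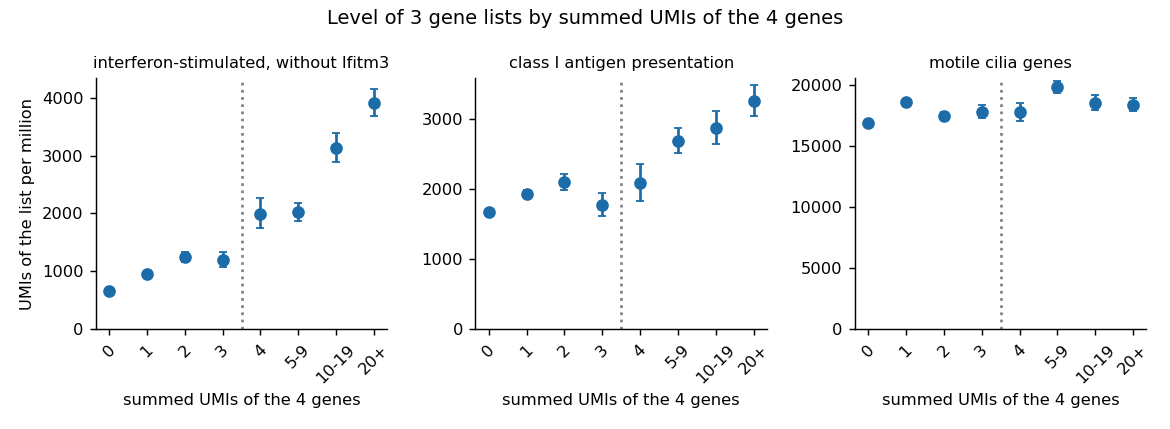
Level in CPM (y axis) of interferon-stimulated genes without Ifitm3, class I genes and cilia genes in kept cells grouped by their summed UMIs of the 4 genes (x axis), with exact Poisson 95% intervals. The dotted line is the threshold of 4. Interferon-stimulated genes run from 654 to 3911, and cilia genes from 16920 to 19873.

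Within the member cells, high counts of the 4 genes went with wider detection of others. Oasl2 was found in 27 of the 50 cells with 4 to 9 UMIs, 19 of 24 with 10 to 19 and 20 of 20 with 20 or more. Rtp4 was found in 35, 21 and 20 of the same cells. Isg15 was found in 9, 4 and 13, and Gbp7 in 6, 5 and 15.

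In the single-cell ATAC data of uninjured cord, a peak covered each of the 3 Ifit promoter windows. The Ifit3b promoter had 8.25 cut sites per 1000000 cut sites in the class (exact Poisson 95% interval 5.71 to 11.5) in the authors' class EP1, 6.35 (5.15 to 7.74) in EP2 and 10.4 (7.88 to 13.5) in EP3. The level was 18.5 (13.6 to 24.6) in class OPC and 47.8 (34.8 to 63.9) in class PER. It was 41.6 in VEC, 14.4 in ACNT1 and 23.6 in ACNT2. At Ifit1 the values were 1.94, 2.55 and 2.19 in EP1, EP2 and EP3, 8.66 (5.42 to 13.1) in OPC, 10.6 in PER, 13.1 in VEC, and 0.846 and 1.36 in ACNT1 and ACNT2. At Ifit3 they were 3.40, 1.24 and 1.83 in EP1, EP2 and EP3, 3.93 (1.89 to 7.24) in OPC, 15.9 (8.91 to 26.3) in PER, 17.5 in VEC, and 4.23 and 3.18 in ACNT1 and ACNT2. PER and VEC had the highest values at all 3 promoters, and OPC lay within the interval of EP1 at Ifit3. At Ifit1 the value of VEC rested on 6 cut sites in 2 of 50 cells (4.82 to 28.6). That of PER rested on 10 cut sites in 5 of 40 cells (5.09 to 19.5), and OPC lay within both intervals. Of cells with at least 1 cut over the Ifit3b promoter, there were 16 of 301 in EP1, 45 of 290 in EP2 and 20 of 163 in EP3. This is 1 sample, so the classes were not tested against each other, and the deposited class names are not expanded here.

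The bulk RNA libraries were samples that the rule did not use. They were tested with limma on log2(value + 1), where the values are the authors' normalised counts, and fold changes are on that scale. In bulk samples, more responding cells and more RNA per cell cannot be told apart. The labels do not say whether replicates are different animals. The p-values therefore rest on differences among libraries, which may be technical.

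Ifit1 was near 0 in uninjured Foxj1_tdT libraries (0 and 0.9). At 1 dpi it stood at 48.8 and 154.6, and at 5 dpi at 991.4 and 138.3. The injured libraries lay above the uninjured ones without overlap. The same held for 35.5% of all genes tested at 1 dpi and 36.9% at 5 dpi, so this order was common. The log2 change was 6.00 ± 1.72 (SE, n = 2 per group) at 1 dpi, with a limma adjusted p of 0.0272. At 5 dpi it was 8.08 ± 1.72, with a limma adjusted p of 0.00834. Both calls start from values near 0, and neither held when the near-identical uninjured Foxj1_tdT libraries were entered as 1 library (log2 changes of 5.92 and 8.002). The call at 1 dpi was also lost on leaving out any 1 library of its groups (log2 changes of 5.18 to 6.82). That at 5 dpi was lost without the first uninjured library (7.61) or the first library at 5 dpi (6.66).

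In Foxj1_Olig2_tdT libraries Ifit1 was 2.1 and 2.0 before injury. It reached 612.9 and 3154.4 at 1 dpi, and stood at 118.7 and 1.1 at 5 dpi. Between genotypes the log2 difference was 3.98 ± 1.72 at 1 dpi (limma adjusted p = 0.287) and -4.55 ± 1.72 at 5 dpi (limma adjusted p = 0.136), and neither passed.

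Ifit3 varied widely between libraries of a group. In Foxj1_tdT it was 173.8 and 173.9 before injury, then 232.8 and 923.2 (1 dpi), then 1374 and 4.1 (5 dpi). In Foxj1_Olig2_tdT the values were 392.6 and 143.5, then 2170.4 and 13960.4, then 328.6 and 49.3. The Foxj1_Olig2_tdT libraries at 1 dpi were the highest of all 12.

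Usp18 in Foxj1_tdT stood at 22.1 and 18.7 before injury, 24.3 and 555.5 (1 dpi), and 126.4 and 72.8 (5 dpi). In Foxj1_Olig2_tdT it stood at 11.8 and 13.8, 63.4 and 677.7, and 56.6 and 20.4. In each genotype the second library at 1 dpi was by far the highest. Ifit3b ranged from 0 to 3360.2 over the 12 libraries. None of Ifit3, Ifit3b and Usp18 passed in any of the 5 contrasts. The second Foxj1_Olig2_tdT library at 1 dpi stood apart, with 0.161% of its summed values in the 4 genes against 0.00121% to 0.0309% in the other 11.

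**Figure D5:**
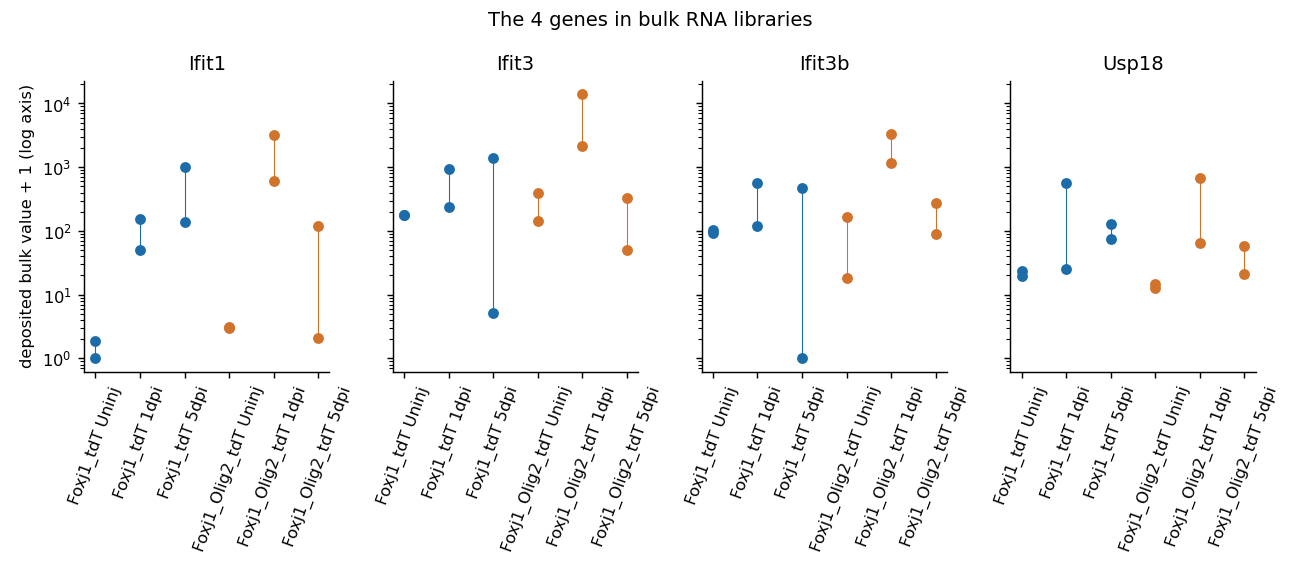
Deposited bulk RNA value plus 1 (y axis, log scale) of the 4 genes that define the member cells, in each of 12 libraries by group (x axis). Points are single libraries, joined within a group, with Foxj1_tdT in blue and Foxj1_Olig2_tdT in orange. Ifit1 is at most 2.1 in the 4 uninjured libraries and reaches 3154.4 at 1 dpi.

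The 4 genes and the interferon-stimulated list together gave 65 tested genes in bulk. At 1 dpi in Foxj1_tdT, 11 rose and 2 fell, where 15.4% of all 15811 genes tested rose and 12% fell. At 5 dpi 15 rose and 1 fell, against 13.8% and 9.21% of all genes. The median log2 change was 0.61 and 1.41, against 0.00 and 0.04 over all genes. With the uninjured pair as 1 library, 3 and 4 genes rose.

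Shisa5, an endoplasmic reticulum protein, rose at 1 dpi from 1141.8 and 1206.7 to 2819.6 and 3264.9 (log2 change 1.37 ± 0.33, n = 2 per group, limma adjusted p = 0.0125). Ifitm2 rose at both times, from 276.8 and 303.2 to 494.4 and 886.4 and then 1601.9 and 891.9. Ifit2, a relative of Ifit1, rose from 5.4 and 5.9 to 350.4 and 520.3 and then 621.5 and 143.8. Ifi27 and Cxcl10, a chemokine, rose at 5 dpi, and Adar, an RNA-editing enzyme, at both times. Oas1c fell at 1 dpi, and Ifit1bl1 was listed at 0 in the injured Foxj1_tdT libraries against 181.3 and 165.7.

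Of the 18 interferon-stimulated genes higher in member cells, all 18 were tested in bulk. Ifi44, Xaf1 and Eif2ak2 rose at 1 dpi in Foxj1_tdT, where 15.4% of all genes did, and Ifi44 and Xaf1 at 5 dpi, where 13.8% did; both shares are near those of all genes. Oasl2 stood at 93.1 and 90.0 before injury, 191.9 and 770.2 (1 dpi), and 631.6 and 351.9 (5 dpi), and did not pass. Rtp4 stood at 574.6 and 566.4, 212.9 and 993.6, and 671.9 and 242.3, and its groups overlapped.

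Between genotypes few genes of the list passed. In uninjured libraries 0 of 65 were higher and 4 lower in Foxj1_Olig2_tdT, where 4.72% and 3.07% of all genes were, and 15 had an unadjusted p under 0.05. Ifitm3 was 21080.3 and 21298.3 in Foxj1_tdT and 8776.2 and 6489.3 in Foxj1_Olig2_tdT (log2 difference -1.49 ± 0.22, n = 2 per group, limma adjusted p = 0.00348). It was lower at 5 dpi too (-1.46 ± 0.22, limma adjusted p = 0.00292). The other 3 were Isg15, Parp12 and Ifit1bl1. With the uninjured Foxj1_tdT pair as 1 library 1 gene was lower, with quantile normalization 2, and with a library left out 1 to 7.

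At 1 dpi 1 gene was higher and 0 lower, against 1.29% and 0.55% of all genes, and 17 had an unadjusted p under 0.05. The gene was Oasl1, at 2.5 and 0 in Foxj1_tdT and 62.9 and 505.3 in Foxj1_Olig2_tdT. The median log2 difference of the list was 1.16. In 32 of the 65 genes both Foxj1_Olig2_tdT libraries lay above both Foxj1_tdT libraries, where 20.4% of all genes did. By the same measure 15 lay above in uninjured libraries (27.2% of all genes), and 7 at 5 dpi (28.1%). The call of Oasl1 was lost with the uninjured pair as 1 library, and 0 to 4 genes were higher with a library left out. At 5 dpi 1 gene was higher (Oas1a) and 2 were lower (Ifitm3 and Nlrc5), against 3.36% and 5.88%, with a median of -0.15. The higher call was lost with a replicate block, with quantile normalization, with a pseudocount of 8 and with the uninjured pair as 1 library, which left 1 lower gene.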

How the data were processed

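Single-cell RNA values were UMI counts in a filtered matrix of 3500 cells and 27998 genes deposited by the authors, whose cell table kept 3285. Single-cell ATAC counts were cut sites in 96670 peaks, as deposited. Bulk RNA values were a signal of normalised counts per gene deposited by the authors, so depth is unknown (they summed to 12601289.7 to 13878101.7). Per the submitters' processing notes, the genome build was mm10 and the tools included Bowtie2, SAMtools, deepTools, Cell Ranger and Cell Ranger ATAC, with no settings. Bulk ATAC libraries (12) were not analysed here.

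Member cells, gene lists (12 lists) and marker lists were chosen with earlier results of these data known. Observed UMIs were divided by those expected from remaining cells of the same library code, and this was tested on simulated data. Clusters came from scanpy 1.11.5 without interferon genes (2000 variable genes, 30 components, 15 neighbours, Leiden resolution 1). Bulk values were fitted with limma 3.58.1 in R 4.3.3 on log2(value + 1), with a trended variance, 12 libraries and 6 group means. The test covered 15811 of 16301 genes, those reaching 10 in 2 or more libraries, with calls at a p under 0.05 after Benjamini-Hochberg adjustment. Named genes were the 4 rule genes, the 25 highest and 10 lowest folds past 2-fold, up to 4 genes per list with the most member UMIs, and in bulk up to 4 called list genes per contrast. Others named from the lists were chosen after their values were seen. Promoter sequences were RefSeq entries on GRCm38.p6. Alternatives are given at the end, and counts over genes with at least 10 expected UMIs were added after seeing the data. Intervals came from scipy 1.17.1. Some genes that passed these rules are not reported here.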

Additional observations from a re-analysis of the deposited data

Results flagged for a closer look

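Ifit1 in bulk RNA differed in direction between times. Both Foxj1_Olig2_tdT libraries lay above the Foxj1_tdT libraries at 1 dpi (log2 difference 3.98) and below them at 5 dpi (-4.55). The difference between those differences was 8.53 ± 2.43 (SE) on the log2 scale, with a limma adjusted p of 0.0591, which did not pass. The same opposite order was seen between uninjured libraries, where the log2 difference was 1.15, and 5 dpi. That difference was not tested, and all 4 uninjured values were at most 2.1.

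For Oasl1 the genotype difference at 1 dpi was larger than that at 5 dpi by 6.52 ± 1.68 on the log2 scale (limma adjusted p = 0.0416). Its uninjured libraries were in the opposite order to those at 1 dpi, with a log2 difference of -3.02 against 6.59, a contrast that was not tested. For Nlrc5, a regulator of class I genes, the genotype difference at 1 dpi exceeded that at 5 dpi by 6.52 ± 1.75 (limma adjusted p = 0.0491). Its uninjured libraries were also in the opposite order to those at 5 dpi, at 3.86 against -4.78, which was not tested. Parp12 was lower in both uninjured Foxj1_Olig2_tdT libraries (-1.39) and higher in both at 1 dpi, again untested. Oasl1 and Nlrc5 had values near 0 in some groups (Oasl1 2.5 and 0 in Foxj1_tdT at 1 dpi, Nlrc5 9.9 and 0 in Foxj1_Olig2_tdT at 5 dpi).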

How the results depend on the processing

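Thinning left 35 member cells. The 25 highest genes stayed past 2-fold in each of the 316 values computed under the alternatives (lowest 2.98, Gbp2 without code 073). These genes were chosen for the highest folds in the same cells, so this was partly set by the choice. A minimum of 50 observed plus expected UMIs selects genes and does not change a fold, so its values repeat the main ones. Higher genes numbered 27 at a minimum of 50 observed plus expected UMIs, with 3 interferon gamma-associated genes. Lower genes numbered 50 against the same cluster, 53 at that minimum, 51 without cells holding mature oligodendrocyte markers (chosen after seeing the data) and 21 to 304 with a code left out (21 without 073, 304 without 072, 266 without 018). Higher class I genes ran from 4 to 9 with a code left out. In the ATAC data, taking peaks within 2 kb selected the same peaks, so that alternative tested nothing.

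In bulk, with each library left out in turn, genes of the list that rose in Foxj1_tdT numbered 2 to 13 at 1 dpi and 3 to 18 at 5 dpi, and those that fell 1 to 3 at each time. Higher between genotypes were 0 to 1 uninjured, 0 to 4 at 1 dpi and 0 to 1 at 5 dpi, and lower were 1 to 7 uninjured and 1 to 3 at 5 dpi. The lowest counts came without 1 of the uninjured Foxj1_tdT libraries, which correlated with each other at 0.989, against 0.864 to 0.928 in other groups. Entered as 1 library (chosen after seeing the data), they gave 3 higher and 1 lower at 1 dpi and 4 higher at 5 dpi in Foxj1_tdT. Between genotypes they gave 1 lower uninjured, 0 higher at 1 dpi, and 0 higher and 1 lower at 5 dpi. Quantile normalization gave 2 lower uninjured, and it and a pseudocount of 8 gave 0 higher at 5 dpi. Ifit1 at 1 dpi also lost its call with a pseudocount of 8 and with quantile normalization. The causes were not tested.

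With the replicate number as a block, 0 genes were higher between genotypes at 5 dpi, and no other call of the list or of the 4 genes changed. Same-numbered libraries did not deviate together (correlations of -0.03 to 0.02 over 15 pairs of groups). This shows no large shared deviation by number. It cannot decide whether same-numbered libraries were paired, which the labels do not say.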
